A study of Mus musculus with 31 samples.

Results

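The libraries compared here are the ones in a mouse brain series that carry the most and the least mitochondrial ribosomal RNA. The share of a library was the count of mt-Rnr1 plus mt-Rnr2 divided by its total count. The 4 highest and 4 lowest of 13 control libraries and the 6 highest and 6 lowest of 18 deltamethrin libraries were taken, which gave 10 high-share and 10 low-share libraries of 31 in all and left out 11 with middle values. The members were thus chosen by a measured value, so the share and the 2 rRNAs are described below with no test, and only other genes were tested. The study's question was what deltamethrin, an insecticide of the pyrethroid class, does to brain transcription when given during development. Each sample is labelled as brain with either the control or the deltamethrin agent, and total RNA was extracted from homogenised tissue aliquots. No strain, sex, dose, age or batch enters the comparison, because the labels used here give none. Both sides hold 4 control and 6 deltamethrin libraries, and agent was a term of the fit. Nothing in the labels says that the samples are separate animals, so p-values measure the spread between these samples.

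Mitochondria carry their own small genome, which encodes 13 proteins of the respiratory chain and ATP synthase, 22 tRNAs and both RNAs of the mitochondrial ribosome. The gene mt-Rnr1 encodes the small-subunit (12S) rRNA and mt-Rnr2 the large-subunit (16S) rRNA, and in GENCODE M21 on GRCm38 they lie at chrM:70-1024 and chrM:1094-2675. Both are copied from the same strand as most mitochondrial mRNAs, in long transcripts that are cut apart at the tRNAs. Brain tissue is rich in mitochondria because synaptic transmission and ion pumping use much ATP. A total RNA library, unlike one selected on poly(A) tails, also holds RNAs without a tail, such as small nuclear RNAs and the histone mRNAs made during DNA replication.

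The high-share libraries held 16.9% to 40.2% mitochondrial rRNA with a median of 19.98%, and the low-share libraries 7.32% to 11.4% with a median of 8.81%. In control the high shares were 40.2%, 27.4%, 22.4% and 18.2% (replicates 2, 7, 11 and 1) and the low ones 10.7%, 9.08%, 8.61% and 8.49% (replicates 8, 4, 9 and 5). In deltamethrin the high shares were 26.3%, 21.8%, 17.5%, 17.4%, 17.2% and 16.9% (replicates 8, 10, 14, 6, 4 and 18) and the low ones 11.4%, 11.2%, 8.99%, 8.62%, 7.61% and 7.32% (replicates 16, 3, 7, 2, 1 and 11). The libraries just outside were control 13 with 14.01% and control 12 with 11.8%, and deltamethrin 9 with 16.4% and deltamethrin 15 with 11.5%. The shares form an unbroken gradient in deltamethrin, and the cut on the low side there fell between nearly equal values. Each library had 4.27 to 6.09 mt-Rnr2 counts per mt-Rnr1 count on the low side and 3.88 to 7.27 on the high side.

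**Figure D1:**
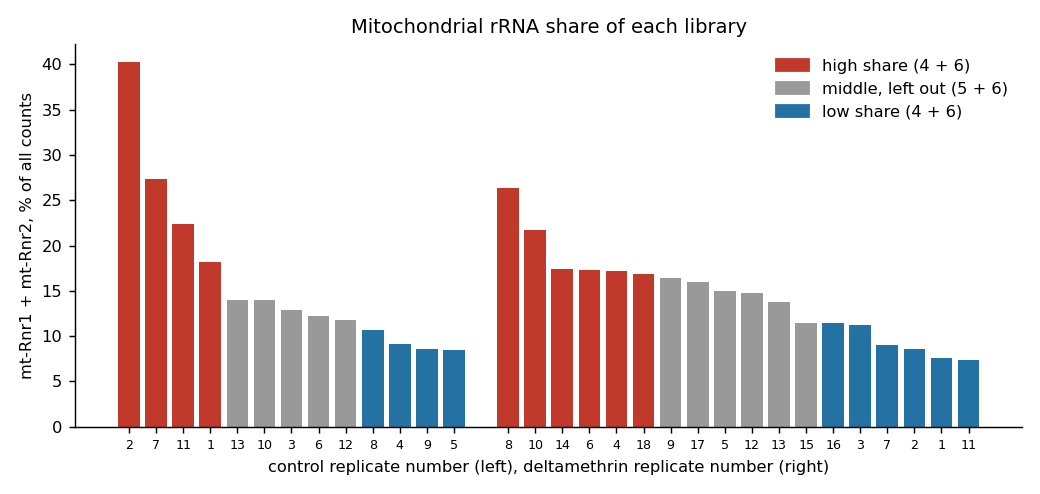
Mitochondrial rRNA share (percent of all counts, linear axis from 0) of each of the 31 libraries, ordered from highest to lowest within control (left) and deltamethrin (right). Control replicate 2 stands above all others at 40.2%, and the libraries left out lie between 11.5% and 16.4%.

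Depth moved with the share. Total counts ran from 17570311 to 34765521 in the high-share and from 28418177 to 38680621 in the low-share libraries, and 25620 to 29402 against 28075 to 29369 genes had a count. Without the 2 rRNAs, the library sizes used in the tests ran from 10499297 to 26068919 in high-share and from 25864221 to 34999597 in low-share libraries. These ranges overlapped only at their ends. Control 2 stood apart with the highest share, the fewest counts and the fewest genes with a count, and control 1 had the next fewest genes (26358) and the highest ratio of the 2 rRNAs. The part that depth plays in the results below was tested only as a term of the fit, given beside the first count. That term was the log10 total count with the 2 rRNAs included. All 71 markers of the cell types and brain regions counted below passed the filter on low counts, and the neuronal and glial markers that define brain tissue were abundant.

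With both rRNAs taken out of the library sizes, 4856 of 19330 genes were higher in the high-share libraries (25.1%) and 4428 were lower (22.9%) at an adjusted p under 0.05 by edgeR's quasi-likelihood test. The median log2 fold change over all genes was 0.029. Complete separation of the 10 high from the 10 low libraries was rarer, with 384 genes wholly higher (1.99%) and 807 wholly lower (4.17%). Adding the log10 total count as a term left 2675 genes higher and 2332 lower. With so many genes past the threshold, the counts for gene groups below are to be read against these background shares. By list median the largest increases were in small RNA classes (snRNAs, RNA polymerase III RNAs and Cajal body RNAs), and cytosolic ribosomal proteins, histones, blood genes and genes of the respiratory chain also had positive medians. The lowest list medians were those of cerebellar, oligodendrocyte precursor, astrocyte and synaptic genes, and other lists had negative medians closer to that of all genes. Because the tissue was bulk, fewer cells of a type and less RNA per cell cannot be told apart in any of these.

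The mitochondrial mRNAs rose unequally. Of 13, 9 were higher, none was lower and 4 did not pass, with a median log2 fold change of 0.61. The mRNA mt-Nd3, a complex I subunit, had 577 to 2241 CPM (counts scaled to a common library size without the rRNAs) with a median of 975 in the high-share libraries, against 239 to 577 with a median of 332 in the low-share ones. All 10 high libraries lay above the low median, and the ranges met only at their ends, where deltamethrin 18 and deltamethrin 3 had nearly the same level. The log2 fold change was 1.57 ± 0.21 (SE; adjusted p = 5.01e-06), the largest of any protein-coding gene that passed with at least 100 counts on average. Among the 13 the next was mt-Co3, a subunit of cytochrome c oxidase, with 7653 to 23347 CPM (median 12976) against 4176 to 8678 CPM (median 5743), which gave 1.14 ± 0.16 (adjusted p = 7.40e-06). Its ranges overlapped only through deltamethrin 3 on the low side and deltamethrin 14 and 18 on the high side.

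The other mRNAs that rose were the ATP synthase subunits mt-Atp6 (0.81) and mt-Atp8 (0.77), the oxidase subunits mt-Co2 (0.67) and mt-Co1 (0.61), the complex I subunits mt-Nd1 (0.64) and mt-Nd2 (0.54), and mt-Cytb of complex III (0.48), each a log2 fold change. Those that did not pass were all complex I subunits. They were mt-Nd6 (0.30 ± 0.20), the one mRNA of the other strand, mt-Nd4l (0.22 ± 0.17), mt-Nd4 (0.14 ± 0.12) and mt-Nd5 (0.05 ± 0.13). The level of mt-Nd5 ran from 803 to 1382 CPM in high and from 801 to 1788 CPM in low libraries, so the groups overlapped over most of their range. The highest low library for mt-Nd5 was deltamethrin 3, which also held the most mitochondrial mRNA on the low side. Along the genome the 3 neighbours mt-Nd4l, mt-Nd4 and mt-Nd5 lie just after mt-Nd3 and had the smallest differences of that strand.

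**Figure D2:**
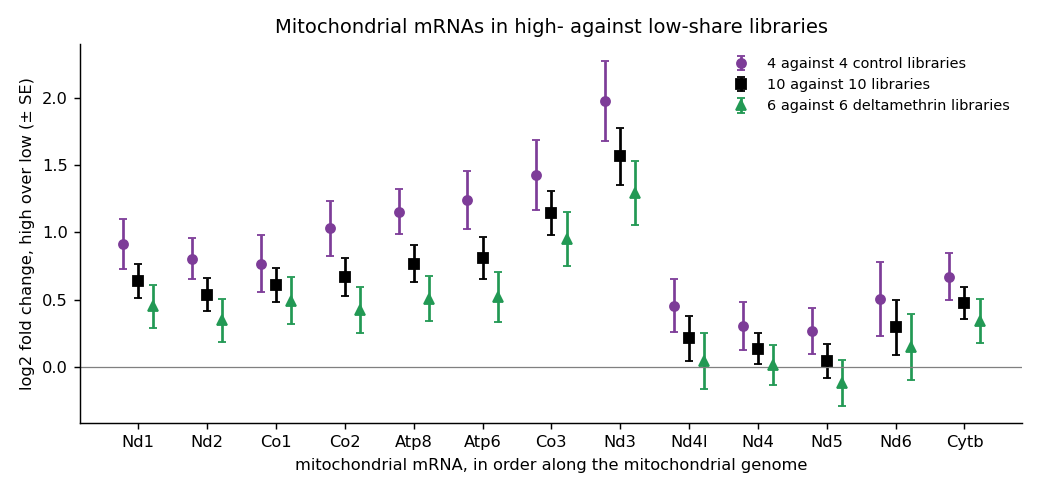
Log2 fold change of the 13 mitochondrial mRNAs in high- over low-share libraries (± SE), in genome order, for all 20 libraries (squares), 8 control libraries (circles) and 12 deltamethrin libraries (triangles). The values peak at Co3 and Nd3 and fall to near 0 at Nd4 and Nd5.

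As a whole the mitochondrial mRNAs took 4.89 ± 0.890% of the counts other than the 2 rRNAs (SD, n = 10) in high-share and 2.92 ± 0.547% (SD, n = 10) in low-share libraries (exact two-sided permutation within agents, p = 0.000186, adjusted 0.000408 over 33 library measures). The middle libraries lay between, with a median of 3.31%. Of 22 mitochondrial tRNAs, 6 passed the filter, of which 4 were higher and none was lower. With the length offset described below none of the 6 was higher and 1 was lower, and within deltamethrin 1 was higher and 1 lower. Those higher over the 20 libraries included mt-Tc (1.27 ± 0.36), mt-Tp (1.01 ± 0.20) and mt-Tn (1.01 ± 0.29). Reads could be counted at near-identical copies in the nuclear genome, so the split between mitochondrial genes and those copies is uncertain. The copy Gm28437 had 7703 to 23265 CPM in high libraries, almost the level of mt-Co3 in each group, and Gm28438 likewise matched mt-Nd3 with a log2 fold change of 1.55. Of 9 such copies tested, 7 were higher and none was lower.

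Nuclear genes for the same organelle moved the same way. Of 84 nuclear subunits of oxidative phosphorylation tested, 68 were higher and 2 lower, with a median of 0.62 against 0.029 over all genes. Their median transcript length was 849.5 bases, and the shortest bin of coding genes described below had a median of 0.47. Cox6c, a subunit of cytochrome c oxidase, had 243 to 660 CPM (median 345) in high against 129 to 227 CPM (median 172) in low libraries, and the groups did not overlap. Its log2 fold change was 1.04 ± 0.13 (adjusted p = 2.66e-06). The complex I subunits Ndufc1 (0.86 ± 0.11) and Ndufc2 (0.79 ± 0.10) were also wholly higher. Proteins of the mitochondrial ribosome, which binds the 2 rRNAs, were higher for 60 of 77 genes and lower for 1, with a median of 0.39. Mrps18c (0.96 ± 0.13), Mrps33 (0.81 ± 0.10) and Mrpl42 (0.72 ± 0.09) had the smallest p-values, each with no overlap of the groups.

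The genes that make, modify and assemble mitochondrial RNA moved less, with 12 of 30 higher, 3 lower and a median of 0.13. Slirp, which together with Lrpprc stabilises mitochondrial mRNA, rose by 0.84 ± 0.13 and did not overlap. Tefm, a mitochondrial transcription elongation factor, rose by 0.64 ± 0.11, and Hsd17b10, a subunit of mitochondrial RNase P, by 0.54 ± 0.08.

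Cytosolic ribosomal proteins rose almost without exception. Of 81 tested, 80 were higher and none was lower, with a median log2 fold change of 0.83, and 20 had no overlap between the groups. Rpl39, a small protein at the exit tunnel of the large subunit, had 115 to 400 CPM (median 164) in high and 55.6 to 103 CPM (median 76.6) in low libraries, a change of 1.20 ± 0.15 (adjusted p = 3.58e-06). The highest value was in control 2, and every high library exceeded every low one. Rpl31 (1.12 ± 0.15) and Rps7 (1.02 ± 0.13) behaved alike, and Rps27rt, a retrogene copy of the ribosomal protein Rps27 that can share its reads, rose by 1.30 ± 0.17. The class took 3.14 ± 0.861% of counts in high and 1.71 ± 0.312% in low libraries (SD, n = 10 each; exact permutation p = 3.09e-05, the smallest these arrangements allow, adjusted 0.000102). Without control 2 the difference of 1.43 percentage points was 1.18.

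The replication-dependent histones formed another group that rose nearly whole. These mRNAs end in a conserved stem-loop in place of a poly(A) tail. The consensus letters of the histone stem-loop, searched on the transcript strand, occurred in 39 of 55 histone genes tested (70.9%) and in 17 of 14954 other protein-coding genes (0.11%). Whether the RNAs counted here lacked a tail was not tested. The sites of 3 named histones, in capitals within GENCODE M21 transcripts on GRCm38, are shown because the stem-loop is the feature searched for.
Hist1h2ae (chr13:23570663-23570688, minus strand): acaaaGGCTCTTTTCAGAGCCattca
Hist1h4a (chr13:23760795-23760820, minus strand): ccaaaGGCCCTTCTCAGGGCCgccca
Hist1h4n (chr13:21831793-21831818, minus strand): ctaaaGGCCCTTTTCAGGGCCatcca

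Of the 55 histone genes 50 were higher and none was lower, with a median of 0.75. Those with the stem-loop letters had a median of 0.83 (36 of 39 higher) and those without 0.65 (14 of 16 higher). An annotated transcript that stops early also lacks the letters. Hist1h4n, one of the histone H4 genes, had 162 to 567 CPM (median 231) in high against 76.5 to 151 CPM (median 127) in low libraries, with no overlap and a change of 1.16 ± 0.15 (adjusted p = 3.48e-06). Hist1h4a (1.11 ± 0.14) and Hist1h2ae (1.05 ± 0.13) followed. All histones together took 0.266 ± 0.0854% of counts in high and 0.139 ± 0.0301% in low libraries (SD, n = 10 each; exact permutation p = 3.09e-05, adjusted 0.000102), and the lowest high library (0.188%) lay barely above the highest low one (0.187%).

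Copies of spliceosomal small nuclear RNAs (snRNAs) had the largest increases. Of the 10 genes with the largest increase and at least 100 counts on average, 8 were copies of U2, the snRNA that pairs with the branch site of introns. The sequence of the copy Rnu2-10 (chr11:101658238-101658428, plus strand, GENCODE M21 on GRCm38) is shown because all these copies share it almost base for base, with the branch-site pairing letters in capitals at bases 33 to 38.
Rnu2-10: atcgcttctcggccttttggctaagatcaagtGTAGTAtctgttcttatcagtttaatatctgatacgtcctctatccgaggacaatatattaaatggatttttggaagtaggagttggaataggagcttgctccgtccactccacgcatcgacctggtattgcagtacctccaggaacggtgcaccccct

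The 11 U2 genes of 191 bases tested differed from Rnu2-10 at no more than 4 bases (97.9% identity or more), so reads cannot be assigned to one copy with certainty and the copies are not independent. Rnu2-10 had 488 to 3715 CPM (median 858) in the high-share libraries and 21.9 to 418 CPM (median 225) in the low-share ones. Control 2 was far above the rest, deltamethrin 1 and deltamethrin 2 far below with 21.9 and 27.9 CPM, and the groups did not overlap. The log2 fold change was 2.23 ± 0.46 (adjusted p = 0.000613), and the 11 copies ranged from 1.97 to 2.63, all of them higher. The other 2 of the 10 were the snoRNAs Snora23 (2.10 ± 0.41), which lies in Ipo7, and Gm24119 (2.13 ± 0.39), which lies in Slc25a3. Reads of a host gene cannot be told apart from theirs in these counts, and whether strand was used in counting is not given in the sources used here. Copies of U1, the snRNA that recognises the start of introns, rose by 1.54 to 1.98 in 11 of 11 genes. Among them Rnu1a1 had 1.74 to 8.45 CPM (median 2.69) in high and 0.759 to 1.53 CPM (median 1.07) in low libraries, with no overlap.

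With log10 total count as a term of the fit, 15 of the 32 snRNA genes tested were higher, against 27 without it. Rnu2-10 (1.51, adjusted p = 0.0747), Snora23 (1.30, adjusted p = 0.0752) and Gm24119 (1.31, adjusted p = 0.0612) did not pass in that fit, and Rnu1a1 did. Of the other genes named here as higher or lower, mt-Tc, mt-Tp, mt-Tn, Wdr49, Cbln3, Kcne2, Egr3, Mog, Adora2a and Gpr6 did not pass in it either.

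Most snRNA genes of the annotation have few counts, and 32 of 747 with any count passed the filter. A gene that passed through its high libraries alone had to differ, so the sum over all members is the value to read. That sum was 0.386 ± 0.305% of counts in high and 0.0849 ± 0.0513% in low libraries (SD, n = 10 each; exact permutation p = 3.09e-05, adjusted 0.000102), again with no overlap. Without control 2 the difference fell from 0.301 to 0.209 percentage points. The snoRNAs, which guide chemical modification of other RNAs, summed to 0.0374 ± 0.0163% against 0.0179 ± 0.00290% and did not overlap either (the same p-values). The Cajal body RNAs, which guide the modification of snRNAs, took 0.279 ± 0.140% against 0.107 ± 0.0313% (exact permutation p = 3.09e-05, adjusted 0.000102), and Scarna2 made up most of them with 942 to 4134 CPM in high libraries.

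RNAs made by RNA polymerase III rose in the same libraries. The signal recognition particle RNA Rn7s2, which takes nascent secreted proteins to the endoplasmic reticulum, had 1634 to 13012 CPM (median 3105) in high and 686 to 2071 CPM (median 1231) in low libraries, a change of 1.57 ± 0.26 (adjusted p = 3.88e-05). Its near-identical partner Rn7s1 (1.51 ± 0.25) and Rmrp, the RNA of an endonuclease with roles in rRNA processing (1.69 ± 0.26), overlapped slightly as Rn7s2 did. Together these RNAs took 3.45 ± 2.13% of counts in high and 1.35 ± 0.403% in low libraries (SD, n = 10 each; exact permutation p = 6.18e-05, adjusted 0.000170). Control 2 alone held 9.18%, and without it the difference fell from 2.10 to 1.46 percentage points.

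Other non-coding RNAs did not all follow. The hairpins of microRNAs summed to 0.966 ± 0.513% in high and 0.757 ± 0.399% in low libraries (SD, n = 10 each; exact permutation p = 0.338, adjusted 0.338). Single hairpins with few counts, such as Mir29a (0.724 to 3.10 CPM in high and 0.156 to 0.613 CPM in low libraries), passed the filter on low counts mainly through the high side, so their differences are given no weight. Loci of the cytosolic rRNA repeat took less of the counts where mitochondrial rRNA took more, 3.29 ± 0.977% against 4.77 ± 0.350% (SD, n = 10 each; exact permutation p = 0.000649, adjusted 0.00119). Most of that was Gm26917, which lies in a copy of the repeat on chromosome 17. It had 13937 to 27654 CPM (median 24061) in high and 29944 to 46702 CPM (median 41210) in low libraries. Every high library was below every low one, and the log2 fold change was -0.78 ± 0.13 (adjusted p = 4.06e-05). Neither other locus of that list passed. Of these, Lars2 is annotated as a protein-coding gene on chromosome 9, and whether its reads come from rRNA was not tested. It ran from 40.5 to 6012 CPM within the high side alone. The abundant nuclear lncRNAs had 5 of 12 higher and 1 lower, with Rian (0.58 ± 0.09), Pantr1 (0.75 ± 0.09) and Pvt1 (0.92 ± 0.14) higher. Their sum did not pass the test (exact permutation p = 0.0984, adjusted 0.112).

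**Figure D3:**
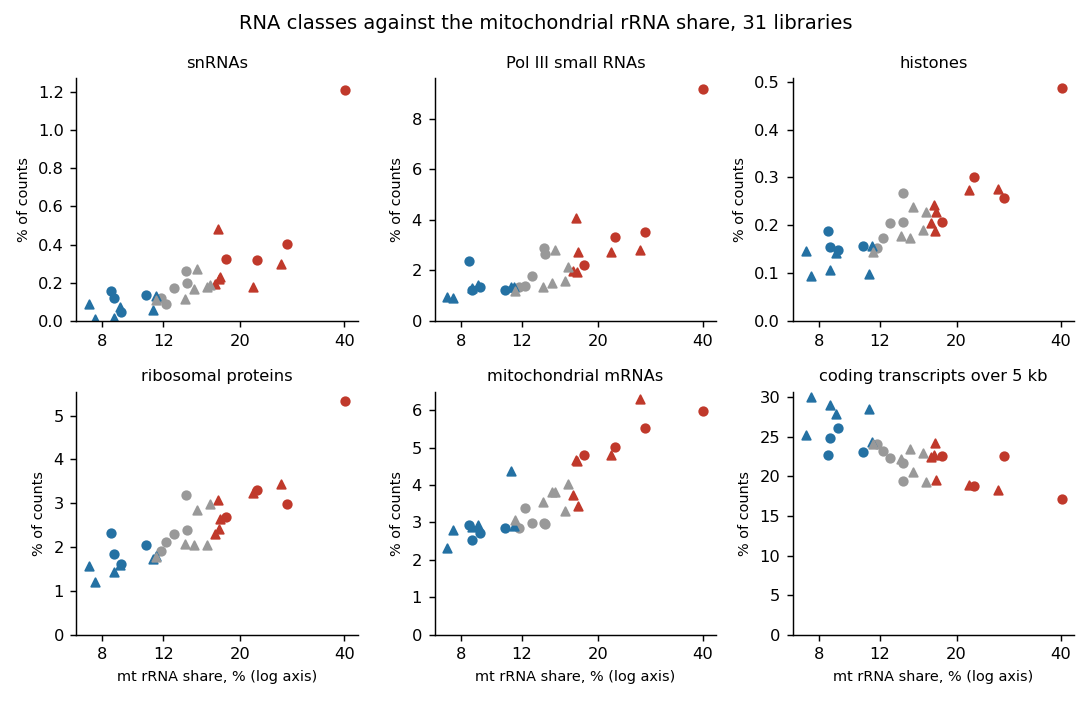
Share of counts other than the 2 rRNAs (percent) taken by 6 RNA classes, against the mitochondrial rRNA share (percent, log axis), for 31 libraries: control as circles, deltamethrin as triangles, high-share in red, middle in grey and low-share in blue. The first 5 classes rise and long coding transcripts fall towards higher shares, and control 2 lies at the far right.

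A few protein-coding genes outside these groups also led the list. Wdr49, a WD-repeat gene, rose by 1.53 ± 0.30, with 3.81 to 23.97 CPM in high and 1.34 to 5.08 CPM in low libraries. Gtpbp4, a GTPase needed to build the large ribosomal subunit, rose by 1.52 ± 0.30, but its ranges of 37.6 to 301 CPM and 30.96 to 56.6 CPM overlapped through control 1. The uncharacterised gene 1810022K09Rik rose by 1.30 ± 0.16 with no overlap. Of 14 splicing kinases and nuclear speckle genes 4 were higher and 2 lower, near the background shares, with a median of 0.098. Clk1 (0.68 ± 0.10) and Clk4 (0.61 ± 0.08), kinases of splicing factors, were among the higher ones.

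The 10 largest decreases were in genes of several kinds. Slc6a5, the glycine transporter of glycinergic neurons of the hindbrain and spinal cord, had 0.328 to 11.7 CPM (median 2.64) in high and 4.30 to 26.4 CPM (median 18.4) in low libraries. The groups overlapped, with control 4 and deltamethrin 3 and 7 lowest on the low side and deltamethrin 6 and 4 highest on the high side. Its change was -2.12 ± 0.47 (adjusted p = 0.00126), and Glra1, a glycine receptor subunit, changed by -2.14 ± 0.43. Syt2, the calcium sensor of fast-releasing synapses, had 32.0 to 75.4 CPM (median 45.5) in high against 109 to 187 CPM (median 121) in low libraries, with no overlap and -1.48 ± 0.14 (adjusted p = 4.66e-07). Hipk2, a nuclear kinase, also fell without overlap (-1.30 ± 0.13), as did Ahnak2 (-1.32 ± 0.23).

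Cbln3, made by cerebellar granule cells, fell by 1.45 on the log2 scale, from 84.1 to 184 CPM in low to 7.39 to 103 CPM in high libraries, and control 1 and deltamethrin 14 were lowest. The remaining genes of the 10 with the largest decrease were Gm43398 (-1.50 ± 0.21), Dlk1 (-1.29 ± 0.18), Cdr1 (-1.26 ± 0.19) and Tfap2b (-1.25 ± 0.21), a transcription factor of the AP-2 family. Cdr1 values are from its annotated locus and the counts cannot tell linear from circular RNA.

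Synaptic and excitability genes fell as a group, with 17 of 20 lower, none higher and a median of -0.47. Their median transcript length was 5109.5 bases. In the bin of coding genes of 4980 to 6547 bases, described below, 50.5% were lower and the median was -0.23. Grin1, the obligatory subunit of NMDA receptors, had 93.8 to 146 CPM (median 121) in high and 158 to 246 CPM (median 205) in low libraries, with no overlap and -0.72 ± 0.10 (adjusted p = 3.61e-06). The potassium channel gene Kcna1 changed by -0.67 ± 0.08. Excitatory neuron markers split, with 3 of 6 lower and Neurod6 higher (0.41 ± 0.08). Camk2a fell by 0.73 without overlap. Of 6 inhibitory neuron markers 3 fell, namely Slc32a1 (-0.73 ± 0.13), Gad2 (-0.47 ± 0.10) and Gad1 (-0.45 ± 0.09). The other 3 had positive log2 fold changes of up to 0.34, and none of them passed. Within deltamethrin 1 of the 6 was higher and 3 were lower.

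Astrocyte markers fell in 6 of 6 genes, within the narrow span of -0.56 to -0.44, against 22.9% of all genes. Aldoc, a glycolytic enzyme of astrocytes, had 382 to 689 CPM (median 595) in high and 721 to 965 CPM (median 804) in low libraries, with no overlap and -0.54 ± 0.10 (adjusted p = 6.35e-05). The mean log2 CPM of the 6 markers was 7.07 ± 0.163 against 7.57 ± 0.176 (SD, n = 10 each; exact permutation p = 3.09e-05, adjusted 0.000102). Their summed level was 875 to 1351 CPM in high and 1450 to 1965 CPM in low libraries. All 4 markers of oligodendrocyte precursors fell as well, Cspg4 by 0.71 and Gpr17 by 0.62. Mature oligodendrocyte markers moved in both directions, with 3 of 6 lower and Mog higher, and their mean did not pass the test (exact permutation p = 0.188, adjusted 0.197).

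Markers of brain regions and of blood moved as well. Cerebellar markers summed to 178 to 538 CPM in high and 460 to 679 CPM in low libraries, and 3 of 6 were lower and none higher. Within control 3 were lower (median -0.93) and within deltamethrin 1 (median -0.35). Striatal markers went the other way, with 5 of 6 higher, such as Gpr6 (0.54 ± 0.12) and Adora2a (0.43 ± 0.14), and a summed level of 363 to 808 CPM against 342 to 543 CPM. Within control 2 striatal markers were higher and within deltamethrin 1, and Adora2a passed in neither. Blood genes rose in 4 of 5, with the haemoglobin gene Hbb-bs at 227 to 738 CPM in high and 148 to 284 CPM in low libraries (0.98 ± 0.17, adjusted p = 6.39e-05). Choroid plexus genes were higher for 3 of 6, led by Kcne2 (1.01 ± 0.25), but their mean log2 CPM did not pass the test (exact permutation p = 0.113, adjusted 0.125). The fits within each agent gave medians of 0.89 in control, with 3 higher, and 0.13 in deltamethrin, with 0 higher. None of the 71 markers was at 0 in every library of a side, and the part of these markers in the other results was not tested.

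Microglial markers had 2 of 6 higher and 2 lower, endothelial and meningeal markers each had 2 of 5 lower and none higher, and ependymal ones 3 of 4 higher. No member of these 4 lists was free of overlap between the groups. Over all genes 1.99% were wholly higher and 4.17% wholly lower, so in lists this small the absence carries no weight. The microglial counts were not far from the background shares of 25.1% higher and 22.9% lower. The mean log2 CPM of the ependymal markers and that of the meningeal ones did not pass (exact permutation, adjusted p = 0.0596 each). With log10 total count as a term, the 3 higher ependymal markers did not pass either.

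Genes that respond to activity, time of day or temperature moved in both directions. Of 25 immediate early genes 5 were lower and 1 was higher, near or below the background shares of 22.9% and 25.1%. Of the lower ones named next, Egr3 and Fosl2 did not pass with 6 and 9 libraries a side. Egr3 (-0.65 ± 0.15), Fosl2 (-0.57 ± 0.10) and Jun (-0.43 ± 0.08) were among the lower ones. The clock list had 9 of 19 lower and 2 higher. Its median transcript length was 4236 bases, and 44.3% of coding genes in the bin of 4180 to 4979 bases were lower. Cry2, a repressor of the clock, had 71.8 to 111 CPM (median 93.9) in high and 114 to 143 CPM (median 128) in low libraries, with no overlap and -0.44 ± 0.08 (adjusted p = 5.18e-05). Nr1d1, also a repressor, changed by -0.51 ± 0.09 and overlapped. Of 12 heat shock and cold-inducible genes 5 were lower and 2 higher. The heat shock genes Hspa1b (-0.94 ± 0.17) and Hspa1a (-0.90 ± 0.16), which are near-identical copies, fell, while Hspe1, the small mitochondrial chaperonin, rose by 0.75 ± 0.11.

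**Figure D4:**
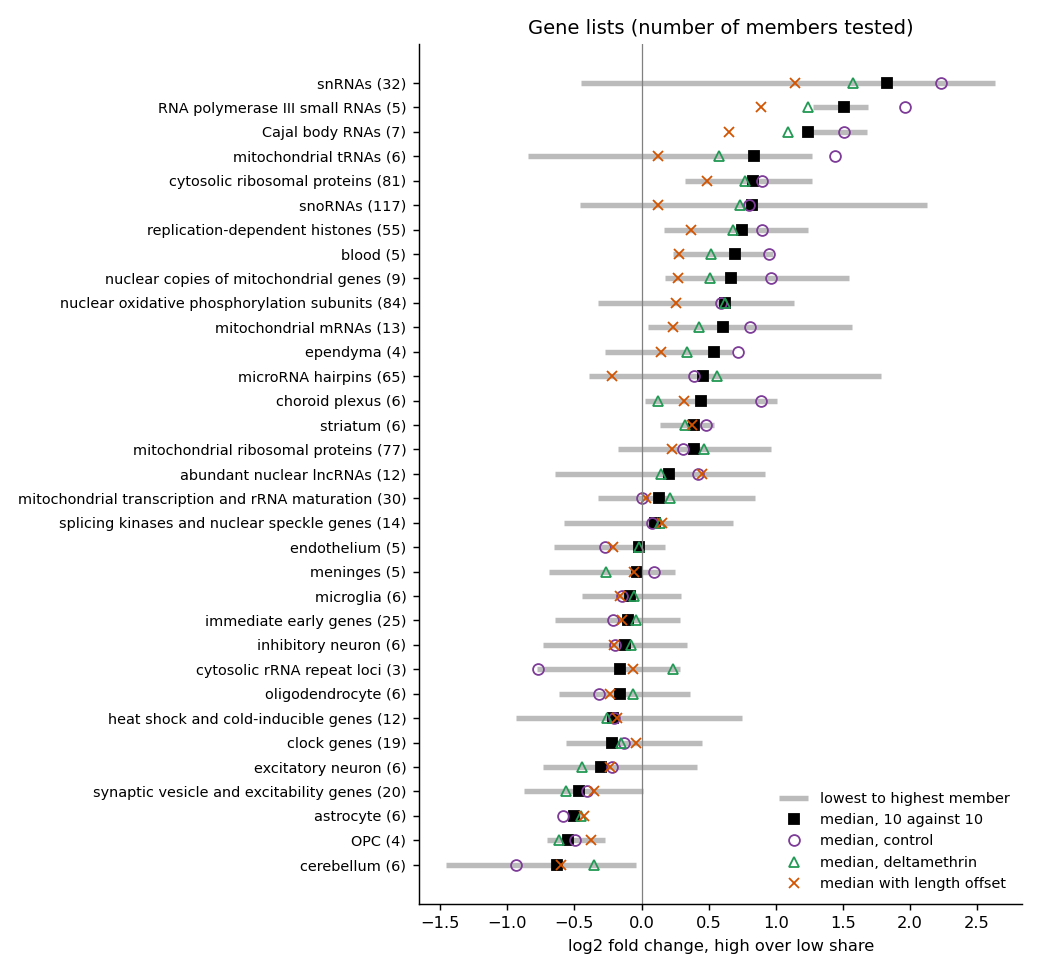
Log2 fold change of high- over low-share libraries for 33 gene lists, ordered by median: squares for all 20 libraries, circles for control, triangles for deltamethrin, crosses for the fit with a length offset, and grey bars from the lowest to the highest member in the 20-library fit. Small RNA classes lie furthest to the right and cerebellar markers furthest to the left.

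Most groups that rose furthest had short transcripts. Across 14996 protein-coding genes the log2 fold change was lower for longer transcripts (Spearman rho -0.521, a description over genes, which are not replicates). In the shortest of 10 equal bins, of 51 to 1254 bases, 1030 of 1500 genes were higher and 28 lower, with a median of 0.47. In the longest bin, above 6547 bases, 95 of 1500 were higher and 826 lower, with a median of -0.29, and the bins between stepped down without a reversal. At library level, coding transcripts of up to 1 kb took 5.89 ± 1.12% of counts in high and 3.77 ± 0.595% in low libraries (SD, n = 10 each; exact permutation p = 3.09e-05, adjusted 0.000102). Transcripts over 5 kb took 20.7 ± 2.41% against 26.2 ± 2.57% (the same p-values).

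**Figure D5:**
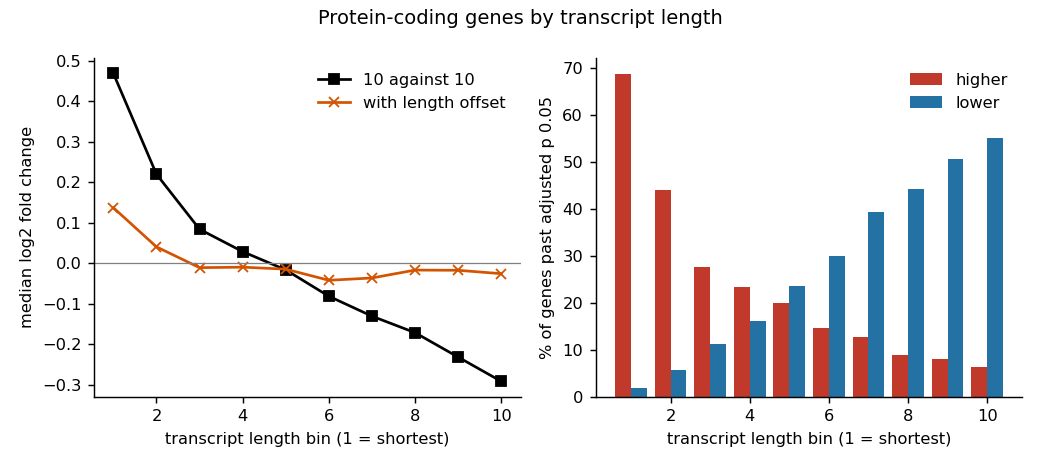
Protein-coding genes in 10 bins of transcript length, 1 the shortest: median log2 fold change of high over low share before and after a length offset (left), and percent of genes higher or lower at an adjusted p under 0.05 (right). The share of higher genes falls from 68.7% in the shortest to 6.33% in the longest bin.

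Base composition had a weaker trend (rho -0.192 with GC percent). In the lowest of 10 GC bins 567 of 1500 genes were higher and 85 lower. Among genes of middle length the trend with GC was plain, from 251 higher and 34 lower of 600 in the lowest of 5 GC bins to 23 higher and 262 lower in the highest. Among genes of middle GC, the shortest of 5 length bins had 351 of 600 higher and the longest 30.

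When a smooth trend on transcript length was fitted in each library and carried as an offset, 4052 of 19235 genes were higher (21.1%) and 3685 lower (19.2%). Under that offset 76 of 81 ribosomal proteins were higher with a median of 0.49. Of 84 oxidative phosphorylation subunits 49 were higher and 4 lower, with a median of 0.26. Of 77 mitochondrial ribosomal proteins 47 were higher and 1 lower, with a median of 0.23. Of 55 histone genes 34 were higher and 0 lower, with a median of 0.37. The number of higher mitochondrial mRNAs went from 9 to 5. Among small RNAs that had passed the filter on low counts, 27 snRNAs were higher and 3 lower under the offset (27 and 0 without it), and 14 snoRNAs were higher and 5 lower (78 and 1 without it). The trend was fitted over all genes tested, these small RNAs included, so their own rise is part of what the offset takes off. Whether length accounts for these classes was therefore not tested. Astrocyte markers were lower for 5 of 6 and synaptic genes for 15 of 20. Of the 9 mitochondrial mRNAs that had passed, mt-Cytb, mt-Nd2, mt-Co2 and mt-Atp8 did not pass with the length offset, nor did Mog. With GC added to the offset, 2 mitochondrial mRNAs were higher, and the median of the 13 was -0.015.

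The comparison was repeated within each agent, and the libraries of one agent take no part in the other. Within control, 4 against 4 libraries, 2015 of 19036 genes were higher (10.6%) and 2164 lower (11.4%). The count depended on single libraries, since without control 9 only 218 were higher and 510 lower, without control 4 these were 976 and 1142, and without control 8 they were 886 and 1277. Without control 7, 1058 were lower. Within deltamethrin, 6 against 6, 3919 of 19527 were higher (20.1%) and 3648 lower (18.7%). Of 1980 genes higher in control and tested in both, 1524 were also higher in deltamethrin, which is 77.0% of the control list and 39.1% of the deltamethrin list. For lower genes the overlap was 1606, or 74.3% and 44.3%. No gene was higher in control and lower in deltamethrin. The reverse held for 1 gene, Med20, which encodes a subunit of the Mediator complex and is named after its values were seen. Its log2 fold change was -0.57 ± 0.13 in control (adjusted p = 0.0136) and 0.29 ± 0.10 in deltamethrin (adjusted p = 0.0227).

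The test of the difference between agents called 0 of 19330 genes (0%) by edgeR's quasi-likelihood test, with 1935 at an unadjusted p under 0.05 and a smallest adjusted p of 0.153. List medians were nonetheless larger in control for some groups, such as mitochondrial mRNAs (0.81 against 0.42) and replication-dependent histones (0.90 against 0.68), and for others nearly equal, such as oxidative phosphorylation subunits (0.60 against 0.62). The gap in share was also wider in control (medians of 24.9% high and 8.84% low) than in deltamethrin (17.4% and 8.81%). The part of that gap in the medians was not tested.

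The 11 middle libraries, which took no part in the selection of either side, spanned only 11.5% to 16.4%. A slope on the log2 share in them called 0 of 20569 genes higher (0%) and 0 lower (0%) by edgeR's quasi-likelihood test, with 1875 and 1595 at an unadjusted p under 0.05. The smallest adjusted p was 0.0561. Without deltamethrin 17 there were 753 higher and 223 lower, and other scalings and filters gave 0 to 23 higher and 0 to 12 lower. Of 4849 genes higher in the 20 libraries and tested here, 86.7% had a positive slope, against 50.7% of all genes, and of 4427 lower genes 88.7% had a negative slope, against 49.3%. The named genes did not all follow. The slopes per doubling of the share were 2.50 for Rnu2-10, 1.51 for Rpl39 and 0.84 for mt-Nd3, but 0.54 for Slc6a5, 0.48 for Ahnak2 and 0.010 for Gtpbp4. Fosl2 (1.07 ± 1.19) and mt-Tn (-0.53 ± 0.52) also had slopes against their direction in the 20 libraries. Median slopes were 1.30 for cytosolic ribosomal proteins and 2.05 for snRNAs. They were -0.54 for mitochondrial tRNAs and 1.10 for immediate early genes, whose medians in the 20 libraries were 0.83 and -0.10.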

How the data were processed

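Total RNA of mouse brain was sequenced in 13 control and 18 deltamethrin samples. The authors deposited raw, unnormalized read counts for each Ensembl gene. The submitters' processing notes name Trimmomatic, HISAT2, SAMtools, MultiQC and GRCm38, while the counting tool and the use of strand are not given in the sources used here. Symbols, lengths and positions came from GENCODE M21, which holds 48435 of the 48795 gene IDs (99.3%).

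The members and all gene lists were chosen with earlier results of these data known. After mt-Rnr1 and mt-Rnr2 were removed, genes were kept by filterByExpr (minimum count 10, minimum total 15), scaled by TMM and tested with edgeR 4.0.16 (R 4.3.3; quasi-likelihood F-test, robust) for high against low share with agent as a term, at a Benjamini-Hochberg adjusted p under 0.05. SE was taken as |log2 fold change| / √F. CPM values use the scaled library sizes. Library measures were compared by an exact two-sided permutation within agents (64680 arrangements), adjusted over 33 measures. The length offset is a spline with 5 degrees of freedom on log2 transcript length in each library, fitted over all genes tested, small RNAs included.

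Named genes were the 10 largest increases and 10 largest decreases among called genes with at least 100 counts on average, 5 more protein-coding genes where those held fewer than 5, the 13 mitochondrial mRNAs, and the 3 smallest p-values of each list. One gene that this rule names is not reported here. The fit was tested on simulated data. Alternatives were other scaling, filters, tools (DESeq2 1.42.0, limma voom 3.58.1), covariates, library cuts and leaving out each library. The offsets, the fit without control 1 and 2, and the alternatives of the within-agent and middle-library fits were chosen after seeing the data.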

Additional observations from a re-analysis of the deposited data

Results flagged for a closer look

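Single libraries stood apart from the others of their agent and side in 25 of 236 sets of 4 or 6 libraries by Dixon's criterion, which chance meets in about 1 set in 20. Many of these are not independent, because the copies of U2 share reads and control 2 recurs.

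Control 2, the library with the highest mitochondrial rRNA share, was far above the other 3 high control libraries in the snRNA share (1.21% against 0.321% to 0.403%). Its U2 copies were at 3715 CPM for Rnu2-10, 4604 CPM for Gm24950, 1443 CPM for Gm23971, 1018 CPM for Gm24497 and 854.9 CPM for Gm23472, and the snoRNA Gm24119 was at 31.1 CPM. Its astrocyte marker score was lowest at 6.70, against 6.98 to 7.005 in the others.

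Control 5 stood above the other low control libraries in the share of RNA polymerase III small RNAs (2.39% against 1.22% to 1.34%), in the Cajal body RNA share (0.176%), in the striatum score (5.73) and in Wdr49 (2.96 CPM). Control 4 was lowest on that side for the inhibitory neuron score (6.51) and for Gm24119 (0.705 CPM), and control 9 was highest for Tfap2b (5.13 CPM).

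On the high deltamethrin side, deltamethrin 4 was highest for the snoRNA share (0.0499% against 0.0247% to 0.0322%), Gm23971 (464.6 CPM), Gm25360 (120.7 CPM) and Gm24119 (9.02 CPM). Deltamethrin 8 was highest for Wdr49 (9.06 CPM), and deltamethrin 14 was lowest for the cerebellum score (4.45 against 5.67 to 6.31).

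On the low deltamethrin side, deltamethrin 3 was highest for the mitochondrial mRNA share (4.37% against 2.32% to 2.93%), for the nuclear copies of mitochondrial genes (2.31%) and for mt-Rnr2 counts per mt-Rnr1 count (6.09). Deltamethrin 16 was highest there for the abundant nuclear lncRNA share (0.598%).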

How the results depend on the processing

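Counts of genes, and of called members for 10 of the lists, were recomputed under the alternatives and came within 1.5 times of the reported ones, with the exceptions given here. With log10 total count as a term, 2675 genes were higher and 2332 lower, and 3 RNA polymerase III small RNAs, 6 snoRNAs and 15 snRNAs were higher. The number of higher snoRNAs and snRNAs followed the filter, with 123 and 54 when no filter was applied and 10 and 16 with a mean count of at least 50, and 132 snoRNAs were higher in the fit over all 31 libraries. With the length offset 5 mitochondrial mRNAs and 14 snoRNAs were higher, and with length and GC 2 and 16. Of the other lists, which were recomputed under the offsets and not under every alternative, the length offset left 5 microRNA hairpins, 0 mitochondrial tRNAs, 4 nuclear copies of mitochondrial genes, 2 blood, 1 choroid plexus, 1 microglial and 0 ependymal markers higher (28, 4, 7, 4, 3, 2 and 3 without it). It left 5 clock genes and 3 immediate early genes lower (9 and 5 without it).

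Log2 fold changes turned their sign under the length offset for the median of microRNA hairpins (-0.22), Ly6c1 (-0.17), C1qa (-0.040), mt-Nd5 (-0.072), mt-Nd4 (-0.074), mt-Nd4l (-0.31) and mt-Nd6 (-0.13). Under the length and GC offset they did so for the medians of mitochondrial mRNAs (-0.015), mitochondrial tRNAs (-0.040) and microRNA hairpins (-0.11), and for Lars2 (0.0072), Ly6c1 (-0.17), Mir684-1 (-0.11), mt-Nd5 (-0.31), mt-Nd4 (-0.34), mt-Nd4l (-0.49), mt-Nd6 (-0.38), mt-Cytb (-0.015), mt-Nd2 (-0.032) and mt-Atp8 (-0.068). Lars2 was also above 0 with the total count term (0.97), with 3 and 4 libraries a side (0.36) and without both control 1 and 2 (0.18). With 6 and 9 libraries a side CT010467.1 (-0.089) and mt-Nd5 (-0.048) turned. The cause was not tested.

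Leaving out each library in turn gave 4511 to 4997 higher and 4081 to 4626 lower genes over the 20 libraries, and Lars2 turned without control 1 (0.03), deltamethrin 11 (0.14) or deltamethrin 16 (0.02). Within control the counts ran from 218 to 2654 higher and 510 to 2760 lower. Beside control 9, leaving out control 4 (976 and 1142), control 8 (886 and 1277) or control 7 (1058 lower) moved them by over 1.5 times. In the middle libraries the leave-one-out counts ran from 0 to 753 higher and 0 to 223 lower, and other settings gave 1 and 1 (RLE), 3 and 1 (upper quartile) and 23 and 12 (no filter). The difference in lncRNA share ran from 0.0497 to 0.0810 percentage points and that in lincRNA and antisense genes from 0.0594 to 0.0946. The first passed an unadjusted exact permutation p of 0.05 without control 1 (0.0797) or deltamethrin 16 (0.0810), and the other also without control 1 (0.0943), deltamethrin 8 (0.0909) or deltamethrin 16 (0.0946). No paired analysis was possible because numbers were given to libraries in accession order within an agent. Precision at low counts is limited by depth, which was lower on the high side.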
